A study of Drosophila melanogaster with 2 samples.

Results

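The 33 genes described here encode the DNA replication machinery of Drosophila melanogaster and its E2F regulators, and the data are binding sites of the tagged transcription factor Ovo at their promoters. The genes were chosen by name and matched in the Ensembl release 115 annotation (dm6 coordinates), where all 33 of 13945 protein-coding genes were found, lat as Orc3 and RpA-70 as RPA1. Chromatin immunoprecipitation and sequencing (ChIP-seq) with an anti-GFP antibody was done on whole adult females of a transgenic ovo-GFP line, whose Ovo protein carries GFP at its C terminus. The antibody field of the labels names ovo, while the description names GFP. Biological replicates numbered 1 and 4 make up the only group, and their age is given as unknown. Both came from the same line, and flies without the tag were not analysed here. The promoter that drives the transgene is not given in the sources used here. Whole flies contain every tissue, so the cells in which a peak arose are not known, and transcription was not measured.

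Replication starts where the origin recognition complex (ORC) sits on DNA. Cdc6 and Dup (Cdt1) then load the Mcm2 to Mcm7 helicase there, a step that geminin blocks outside its proper time. The helicase becomes active when Cdc45 and the GINS complex (Psf1, Psf2, Psf3 and Sld5) join it, which requires the kinase whose activating subunit chif (chiffon) encodes. E2f1 with its partner Dp activates many of these genes at the start of S phase, and E2f2 with Dp represses genes. In the ovary, nurse cells and follicle cells copy their DNA without dividing, follicle cells amplify the chorion gene clusters, and the egg is stocked with replication proteins for the fast early nuclear cycles. Ovo itself is a zinc-finger factor of the female germline.

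A thresholded summit within 500 bp of an annotated transcription start site (TSS) was found at 13 of the 33 genes (39.4%). Over all protein-coding genes the share was 23.5%. The 13 genes were dup, Mcm2, dpa, Psf2, Psf3, Sld5, chif, PCNA2, RpA-70, Claspin, RnrS, E2f1 and Dp. They rest on 12 peaks, because Mcm2 and RpA-70 are transcribed away from each other and share the best peak between them. None of the 6 ORC genes had a peak, while 2 of the 3 E2F genes, 4 of the 7 genes of helicase activation, 3 of the 6 fork protein genes, 2 of the 6 MCM genes, 1 of the 3 licensing genes and 1 of the 2 genes of nucleotide supply did. These groups hold 2 to 7 genes each, and no test between them was made. Peaks were ranked within each list by the authors' score, an enrichment value against a control, with rank 1 the highest. The thresholded list held 4477 peaks and equalled the 4477 highest of the relaxed list called on both replicates together. The median rank of the best peak was 1683 at the 13 genes and 1896 at all genes with a peak.

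**Figure D1:**
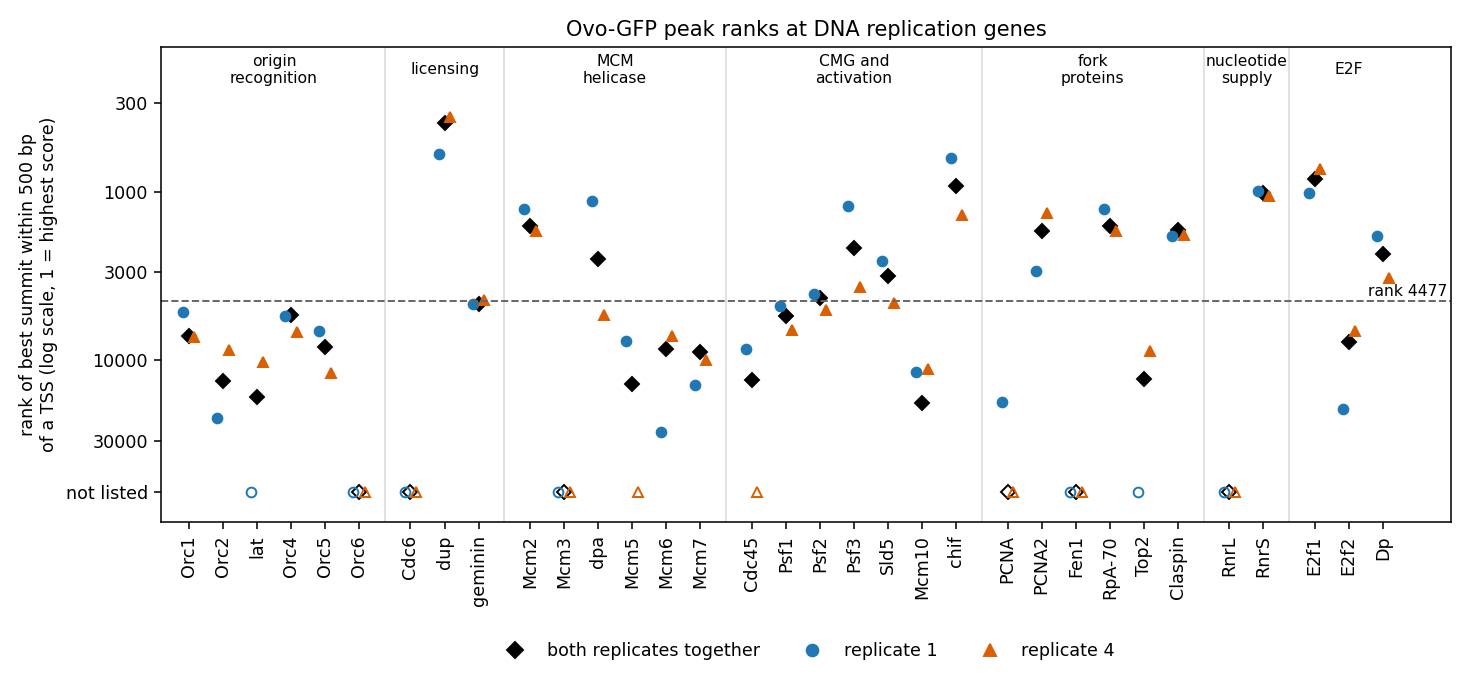
Rank of the best summit within 500 bp of a TSS (log scale, 1 is the highest score) for each of the 33 genes, by role, in the relaxed list of both replicates together (diamonds), of replicate 1 (circles) and of replicate 4 (triangles). Open symbols mark genes with no summit in that list, and the dashed line is rank 4477. All ORC genes lie below the line and dup lies highest, at rank 393 in both replicates together.

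The Ovo core site TAACNGT, with N any base, was searched on both strands. The following stretches are shown because they hold the core sites nearest to a summit among the replication genes. Capitals mark the core sites, in Sld5 together with an overlapping DRE (TATCGATA), the site of the factor DREF. All 3 read 5′ to 3′ on the strand of the gene, from the RefSeq sequence of Release 6 (dm6).
Psf2, chr2L:4387081-4387201, minus strand: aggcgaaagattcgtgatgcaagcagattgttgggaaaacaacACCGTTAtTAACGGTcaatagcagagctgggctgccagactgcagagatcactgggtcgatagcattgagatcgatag
Sld5, chr3R:26056620-26056648, minus strand: tttgtgaTATCGATAACGGTTAgacgtgc
Claspin, chr3L:4313398-4313482, plus strand: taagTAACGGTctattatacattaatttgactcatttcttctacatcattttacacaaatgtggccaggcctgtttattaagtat
In Psf2 a pair of core sites pointed in opposite directions with 1 base between them, centred 6 and 14 bp from the summit. Sld5 had 3 overlapping matches, namely the DRE and a core site on each strand, with the core sites centred 50 and 52 bp from the summit. The Claspin site was centred 53 bp from the summit. A site was counted at a summit only where all its bases lay within 50 bp of it, so the Sld5 and Claspin sites were not counted.

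Genes that complete and switch on the helicase had peaks at 4 of 7. The chif promoter peak (chr2L:16350153-16350592) scored 185.4 and ranked 929, and replicate 1 placed it at 632 and replicate 4 at 1368. It lay 90 bp upstream of the downstream one of 2 annotated chif TSSs, and a stronger peak (score 197.7, rank 807) stood in the intron 988 bp upstream of the same TSS. Psf3 (chrX:10385762-10386201) scored 118.9 and came at rank 2163, or 1217 in replicate 1 and 3685 in replicate 4. At Sld5 (chr3R:26056360-26056799) the score was 94.71 and the rank 3159, against 2568 for replicate 1 and 4542 for replicate 4. Psf2 (chr2L:4386921-4387360) had the lowest score of the 13 genes, 77.15, and rank 4284, which replicate 1 placed at 4051 and replicate 4 at 4997. The paired core sites shown above lay beside its summit. Each of these 4 genes thus ranked higher in replicate 1, as did 9 of all 13 genes with a peak. In the 4477 best peaks of replicate 4 alone, only chif and Psf3 had a summit within 500 bp. Psf1, Mcm10 and Cdc45 had no thresholded peak. Their best summits in the relaxed list of both replicates ranked 5431, 17754 and 13009, and Cdc45 had none in replicate 4.

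Among the MCM genes, which encode the ring of the helicase, Mcm2 and dpa (Mcm4) had a peak. The Mcm2 peak (chr3R:8264647-8265086) scored 141.7, at rank 1599. The summit stood 103 bp upstream of the Mcm2 TSS and 416 bp upstream of the TSS of RpA-70, the large subunit of the single-stranded DNA binding protein. A further thresholded peak between the 2 genes (summit chr3R:8264648, score 134.8, rank 1740) lay 197 bp upstream of RpA-70 and 322 bp upstream of Mcm2. In replicate 1 the best summit, rank 1273, lay on the RpA-70 side, 184 bp from its TSS, whereas in replicate 4, at rank 1722, it lay 93 bp from the Mcm2 TSS. The dpa peak (chr2R:7499793-7500232, score 110.0, rank 2494) had the widest ratio of replicate ranks among the 13 genes, from 1143 in replicate 1 to 5416 in replicate 4. In replicate 4 alone dpa was therefore outside the 4477 best peaks and the MCM count was 1 of 6. The 2 dpa ranks belong to summits at different positions. The best summit lay 104 bp downstream of a dpa TSS in replicate 1 and 105 bp upstream of one in replicate 4. Mcm3 had no summit within 500 bp in any list. Mcm5, Mcm6 and Mcm7 had relaxed summits of both replicates together at ranks 13840, 8560 and 8863, and Mcm5 had none in replicate 4.

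The strongest peak of all 33 genes was at dup, the licensing factor Cdt1. It lay at chr2R:15380486-15380925, scored 260.0 and came at rank 393. Replicate 1 placed it at 598 and replicate 4 at 362. The summit was 92 bp upstream of the downstream dup TSS and inside an untranslated exon of the longer transcript. It also lay 18 bp upstream of a TSS of SRPK, a gene for an SR protein kinase on the other strand, so the peak is nearer to SRPK than to dup. Geminin, the inhibitor of Dup, stood just outside the threshold. Its summit, 63 bp upstream of a TSS, ranked 4616 in the relaxed list of both replicates with a score of 73.15, where the lowest thresholded score was 74.9. It ranked 4640 in replicate 1 and 4403 in replicate 4, so that in the best peaks of replicate 4 alone the licensing count was 2 of 3. Cdc6, the loading ATPase, had no summit in any of the lists, and the nearest thresholded summit was 33116 bp away.

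None of the ORC genes, which encode the complex that marks origins, had a thresholded peak, nor a summit in the 4477 best peaks of replicate 1 or of replicate 4. In the relaxed list of both replicates, which also holds background, 5 of the 6 had a summit within 500 bp. The corresponding share was 54.8% over all protein-coding genes, and 27 of the 33 replication genes (81.8%). Orc4 came nearest to the threshold, at rank 5365 (5454 in replicate 1 and 6781 in replicate 4). Orc1 followed at rank 7166 (5161 and 7308) and Orc5 at rank 8314 (6656 and 11886). Orc2 stood at rank 13174, with 21830 in replicate 1 and 8672 in replicate 4. At lat (Orc3) the rank was 16447, and no summit was listed in replicate 1. Orc6 had no relaxed summit in any list, and a thresholded summit lay 1344 bp upstream of its TSS.

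Fork proteins had a peak at 3 of 6, and the counts were the same in each replicate alone. Besides RpA-70, these were Claspin, a checkpoint mediator at the fork, and PCNA2, which encodes a second form of the sliding clamp. The Claspin peak (chr3L:4313238-4313677, score 137.1, rank 1683) was ranked almost alike by replicate 1 (1831) and replicate 4 (1809). The summit was 25 bp upstream of the only annotated TSS, and no other gene shared it. For PCNA2 (chr2L:19583921-19584360) the score was 136.0 and the rank 1713. This was 1 of 4 genes with a higher rank in replicate 4, at 1332 against 2972 in replicate 1. PCNA, the main clamp gene, had no thresholded peak. It had a relaxed summit in replicate 1 alone, at rank 17535 and 315 bp upstream, and the nearest thresholded summit lay 1102 bp upstream of a TSS. Fen1, the flap endonuclease of lagging strand synthesis, had no summit in any list. Top2, the type II topoisomerase, had its best relaxed summit at rank 12919 and none in replicate 1.

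Ribonucleotide reductase, which makes deoxynucleotides, was split between its subunits. RnrS, the small subunit, had a peak (chr2R:11985353-11985792) that scored 177.4 and ranked 1018, and its ranks in the replicates were close, 987 in replicate 1 and 1056 in replicate 4. The summit lay 180 bp upstream of the RnrS TSS. RnrL, the large subunit, had no summit within 500 bp in any list, and the nearest thresholded summit was 6155 bp away.

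Both genes of the activating E2F dimer, E2f1 and Dp, had a peak, and Dp is also the partner of E2f2. E2f1 (chr3R:21632838-21633277) scored 193.4 and came at rank 845, or 1013 in replicate 1 and 731 in replicate 4. E2f1 spans chr3R:21620304-21660871 and has 5 annotated TSSs. The summit stood 15 bp inside the transcripts that start at 21633073, and a further thresholded peak (score 112.8, rank 2377) lay in an intron 2448 bp downstream of the nearest TSS. No other gene shared the promoter peak, which was not counted when only the 5'-most TSS was used. The Dp peak (chr2R:13222185-13222624) scored 114.1 and came at 2328, which replicate 1 placed at 1843 and replicate 4 at 3256. The summit was 28 bp upstream of the first Dp TSS and 54 bp inside Fsn, a gene on the other strand. A weaker peak (score 84.27, rank 3789) lay 280 bp upstream of an internal Dp TSS. E2f2, the repressor, had no thresholded peak. Its relaxed summit ranked 7812 in both replicates together, 19350 in replicate 1 and 6657 in replicate 4, and the nearest thresholded summit lay 1973 bp upstream of a TSS.

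**Figure D2:**
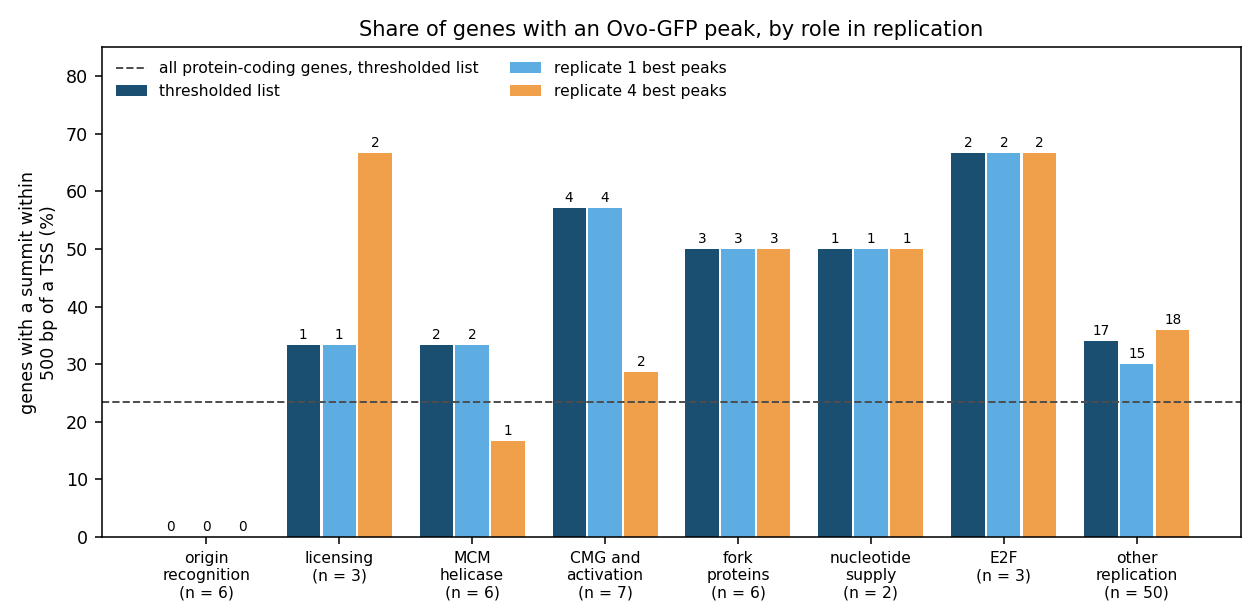
Share of genes (%) with a summit within 500 bp of a TSS, by role and for the 50 further replication genes, in the thresholded list and in the 4477 best peaks of replicate 1 and of replicate 4. The number over each bar counts genes, and the dashed line is the 23.5% of all protein-coding genes in the thresholded list. The ORC bars are at 0 in all 3 lists.

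Replicates were compared by taking the 4477 peaks of highest score in each. In replicate 1 alone 13 of the 33 genes had a peak, against 22.7% of all protein-coding genes. In replicate 4 alone 11 did, with 23.4% over all genes. A peak in both was found at 10 of the 33 genes (30.3%), and at 19.0% of all genes. All 13 genes of the thresholded list had a peak in replicate 1, whereas dpa, Psf2 and Sld5 did not in replicate 4 and geminin was gained there. Of all genes in the thresholded list, 87.6% had a peak in replicate 1 and 91.3% in replicate 4. Because both replicates went into the thresholded list, presence in each is partly built in. Replicate 1 gave the better rank at 9 of the 13 genes and replicate 4 at 4. Mcm2 and RpA-70 enter the 9 with the same pair of ranks. No share over all genes is available for this count, so it cannot be called high or low. Across these 13 genes the ranks of the replicates had a Spearman correlation of 0.554, and across 3259 genes with a thresholded peak it was 0.694. Genes that share a peak enter each value more than once, and no test was made.

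Every summit counted lay within 500 bp of a start site because the rule required it. Of the 13 genes, 11 had the summit upstream of the nearest TSS and 2 (dpa, at 132 bp, and E2f1) had it downstream. Over all genes with a thresholded peak, 79.1% had it upstream. The median position was -90 bp at the 13 genes, and -91 bp over all genes with a peak. With the window narrowed to 100 bp, 7 genes kept a peak and Mcm2, dpa, Psf3, PCNA2, RpA-70 and RnrS did not. The share fell from 39.4% to 21.2% of the 33 genes and from 23.5% to 11.7% of all protein-coding genes. With 1000 bp none was gained, while the share over all protein-coding genes was 26.4%. The 20 genes without a peak had their nearest thresholded summit 1068 bp (Mcm3) to 59748 bp (Psf1) away, with a median of 5290 bp. Every one of the 12 peaks had the usual width of 440 bp.

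**Figure D3:**
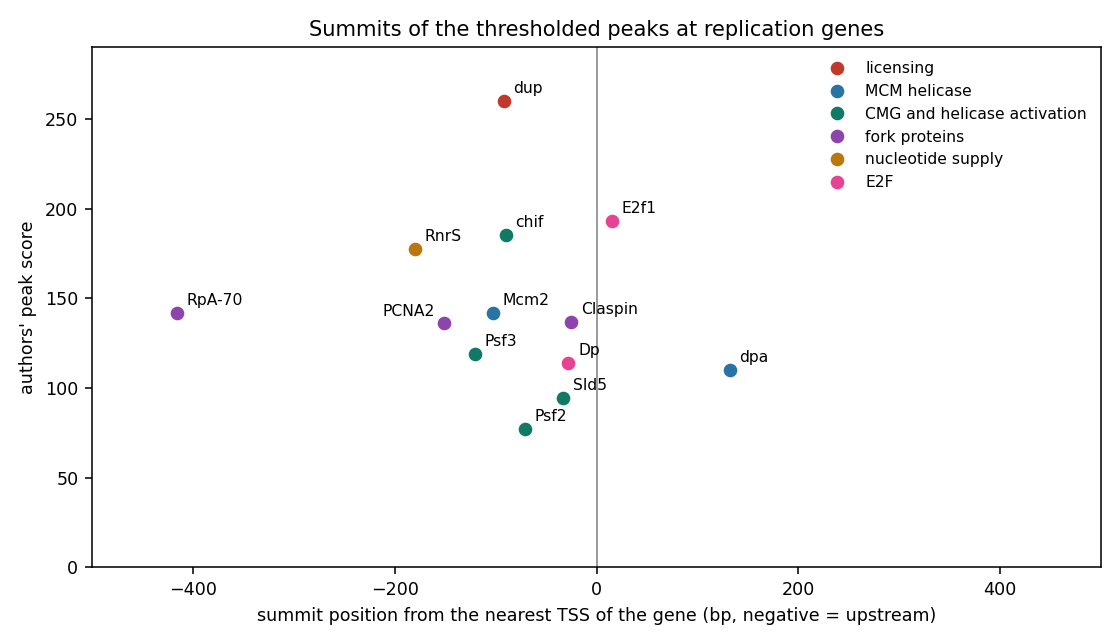
Position of the summit from the nearest TSS of the gene (bp, negative is upstream) against the authors' score for the 13 genes with a thresholded peak, coloured by role. Summits range from 416 bp upstream (RpA-70) to 132 bp downstream (dpa), and scores from 77.15 (Psf2) to 260.0 (dup).

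Most of these promoters were shared. Of the 13 genes, 9 had a peak that also lay within 500 bp of a TSS of another protein-coding gene, and in all 9 that gene was on the opposite strand, with 2 to 615 bp between the start sites. The share of genes with such a shared peak was 55.8% over all genes with a peak. The partners were SRPK at dup, didum (a myosin) at dpa, flw (a protein phosphatase subunit) at Psf3, CG14543 at Sld5, CG10366 at PCNA2, CG34231 at RnrS and Fsn at Dp, besides the pair of Mcm2 and RpA-70. The start sites of dpa and didum were 2 bp apart. At these genes the peak cannot be assigned to a single partner. With each peak given only to the gene with the nearest TSS, 10 of the 33 genes (30.3%) had one, against 17.5% of all protein-coding genes, and dup, Psf3 and PCNA2 lost theirs to SRPK, flw and CG10366. Only Psf2, chif, Claspin and E2f1 had a peak that no other protein-coding gene shared.

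Few summits held an Ovo core site, at these genes and over all promoter peaks alike. Of the 12 peaks 1 (8.33%), that of Psf2, held a core site in the 50 bp to either side of the summit, and of all 2851 promoter peaks 13.7% did. The shorter form TAACGG was likewise found in 1 of the 12, and in 15.7% of all promoter peaks. In the best peaks of replicate 1 alone the count for the core site TAACNGT was 2 of 12, and in those of replicate 4 alone 0 of 10. Within 100 bp of the thresholded summits it was 3 of 12. For these counts no share over all promoter peaks is available, so they cannot be called high or low. Over the whole usual peak width, 220 bp to either side, 6 of the 12 peaks held a core site (50%), with 30.4% over all promoter peaks. Those were the peaks of Psf2, Sld5, Claspin, Psf3, dpa and the Mcm2 and RpA-70 pair. Counted from 250 bp before to 50 bp after any annotated TSS of a gene, a core site was present at 7 of the 13 genes with a peak and at 3 of the 20 without, which were Cdc6, geminin and Top2. Over all protein-coding genes these shares were 26.8% with a peak and 13.1% without. In the same window at the 5'-most TSS only, 4 of the 13 genes and 3 of the 20 had a core site. The shares over all protein-coding genes were then 20.0% with a peak and 11.3% without. Genes with more than 1 annotated TSS had more sequence searched at any TSS, and the part of this in the counts was not tested. A match is a run of letters and not a measured contact.

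E2F sites were frequent at the replication genes with and without a peak. The sites searched were TTTCCCGC, TTTCGCGC, TTTGCCGC and TTTGGCGC on both strands, in the same window at any TSS. A match was present at 16 of the 33 genes (48.5%) and at 8.69% of all protein-coding genes. It was found at 5 of the 13 genes with a peak, namely dup, Mcm2, dpa, Sld5 and RnrS, and at 11 of the 20 without. Over all protein-coding genes the shares were 12.3% with a peak and 7.59% without. Of the ORC genes, which had no peak, 5 of 6 had an E2F site. No summit of the 12 peaks had an E2F site or a DRE within 50 bp (over all promoter peaks 2.39% and 3.79% had them). Within 220 bp of the summit an E2F site was present in 6 of the 12 peaks, against 11.4% of all promoter peaks. The DRE was present at 9 of the 33 genes (27.3%), 3 of the 13 with a peak and 6 of the 20 without, and at 10.2% of all protein-coding genes (16.3% of those with a peak and 8.28% of those without).

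**Figure D4:**
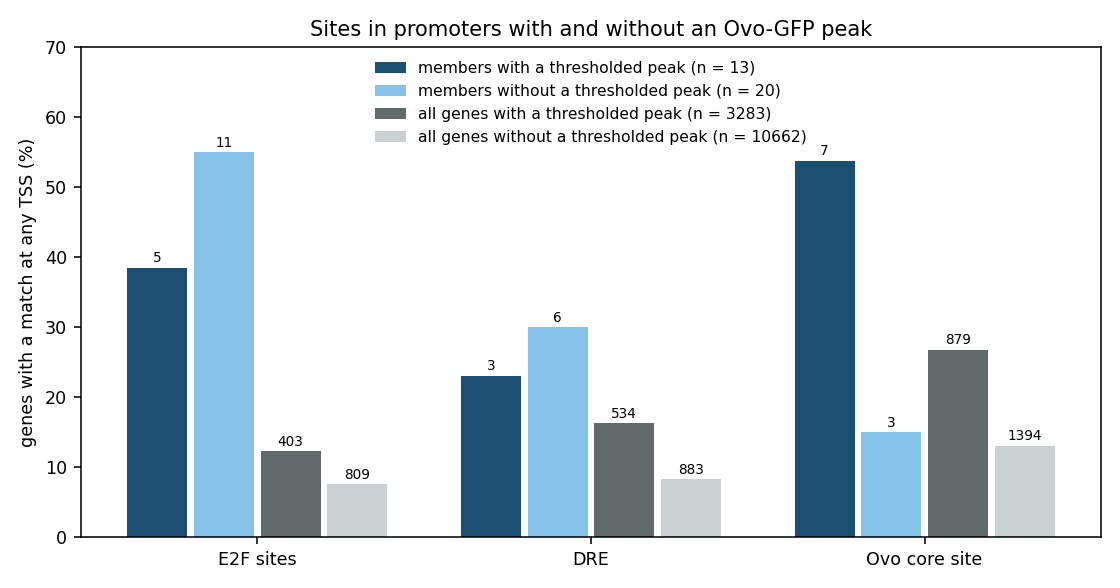
Share of genes (%) with an E2F site, a DRE or an Ovo core site from 250 bp before to 50 bp after any annotated TSS, for replication genes with and without a thresholded peak and for all protein-coding genes with and without one. The number over each bar counts genes, among them 11 of 20 replication genes without a peak that have an E2F site.

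Examples of the E2F sites are given for genes with and without an Ovo-GFP peak, to show that the same letters stood close to the start site in both. Capitals mark the E2F site with 10 bases on either side, 5′ to 3′ on the strand of the gene, from the same RefSeq sequence.
Mcm2 (peak), chr3R:8264996-8265023, plus strand: tagcaaacatTTTCCCGCgcattttcgc
Sld5 (peak), chr3R:26056514-26056541, minus strand: cccaaaatttGCGCCAAAatctgcaaaa
Mcm3 (no peak), chrX:5323839-5323866, plus strand: acactacgctTTTCCCGCgaaaaaactt
Cdc45 (no peak), chrX:1030534-1030561, minus strand: aagccagctgTTTCCCGCgtttttgatt
Orc5 (no peak), chr2L:13829837-13829864, plus strand: gagggaataaTTTGGCGCcatttcaatg
Psf1 (no peak), chr3L:1247714-1247741, minus strand: cgacgaacatTTTGGCGCgaatccatca
RnrL (no peak), chr2L:10327924-10327951, minus strand: atgactttaaTTTGGCGCctttttgtgc
The same 8 letters, TTTCCCGC, stood 36 bp after the TSS in Mcm2, 5 bp after it in Cdc45 and 6 bp before it in Mcm3, counted to the first base of the site. TTTGGCGC began 10 bp after the TSS of Orc5, 2 bp after that of RnrL and 54 bp before that of Psf1, and in Sld5 it was read on the opposite strand, from 16 bp after the TSS.

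Further genes of replication were listed beside the 33, of which 50 matched the annotation. A thresholded peak was present at 17 of these 50 (34%), with a median rank of 2221, against 23.5% of all protein-coding genes. When each peak was given only to the gene with the nearest TSS, 9 of the 50 (18%) had one, near the 17.5% of all protein-coding genes under that rule. By function the counts were 3 of 10 for polymerases and primase, 4 of 11 for clamp loaders and lagging strand factors, 2 of 7 for fork protection and firing, 5 of 13 for cell cycle control of S phase, 2 of 5 for chromatin assembly and 1 of 4 for nucleotide metabolism. The 5 strongest were at Top1, the type I topoisomerase (score 446.6, rank 81), ago, an F-box protein that targets cyclin E (270.0, rank 348), Rbf2, a retinoblastoma family repressor (163.9, rank 1198), PolD2 of polymerase delta (145.3, rank 1518) and elg1, a clamp unloader (130.0, rank 1852). The Top1 peak ranked 81 in replicate 1 and 84 in replicate 4, and that of ago 336 and 433. Blm, a helicase, and the chromatin assembly genes Caf1-105 and Caf1-180 were the first in the alphabet without a peak. The next values were chosen after they were seen. Cdc7, the kinase that works with the product of chif, had a peak that scored 119.7, at rank 2140. Cyclin E (CycE) had a peak at rank 3522, which replicate 1 placed at 7957 and replicate 4 at 2381.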

How the data were processed

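The 4 dm6 peak lists were used, and dm3 lists were not analysed here. Per the text records deposited with the samples, relaxed lists of peaks and background (30000 peaks each) were called for each replicate and for both together against a control alignment, and the thresholded list was derived from them by the irreproducible discovery rate. The labels give sonicated fragments of 200 to 800 bp. The peak caller is not given in the sources used here. The deposited score is the authors' enrichment value and was used only for ranks and descriptions. The deposited −log10 q-value was at its maximum for 59.6% of thresholded peaks and was not used. Depth is unknown, since no counts were given, and the merged list has no standard deviation. Release 6 of the genome supplied sequence. TSSs were all 19607 of protein-coding genes on 6 chromosome arms. A gene had a peak where a summit lay within 500 bp of any TSS, and the 33 genes are all named; of the further genes, the 5 of highest score and the first 3 in the alphabet without a peak are. The code for the window rule was run on simulated summits placed at known genes. That run checks the code and cannot show to which gene a shared peak belongs. Python 3.11.15, numpy 2.4.6, scipy 1.17.1 and matplotlib 3.10.9 were used. With 1 group and no control group no test was made. Members, lists and alternatives were chosen with earlier results of these data known. Of 51 further genes listed, 50 matched.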

Additional observations from a re-analysis of the deposited data

How the results depend on the processing

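The count of 13 replication genes with a peak was 7 with a window of 100 bp, 3 in the 1000 peaks of highest score and 27 in the whole relaxed list of both replicates, and 11 to 13 in either replicate alone. In the 1000 peaks of highest score the counts were 0 for MCM genes, 1 for helicase activation, 0 for fork proteins, 0 for nucleotide supply, 1 for E2F and 2 for the 50 further genes. Within 100 bp they were 0 for MCM genes, 1 for fork proteins, 0 for nucleotide supply and 7 for the further genes. The relaxed list gave 5 for ORC, 2 for licensing, 5 for MCM, 7 for helicase activation and 37 for the further genes. In either replicate alone they were 1 to 2 for licensing, 1 to 2 for MCM and 2 to 4 for helicase activation. With only the 5'-most TSS, 11 of the 33 genes (33.3%) had a peak, against 21.3% of all protein-coding genes. The genes lost were chif and E2f1, so helicase activation had 3 and E2F had 1. With each peak given to the nearest gene, an alternative chosen after seeing the data, licensing had 0 and the further genes 9 (18%, against 17.5% of all protein-coding genes). Core sites at summits were in 3 peaks within 100 bp and in 0 to 2 in either replicate alone. Shares over all promoter peaks are not available for these core site counts. The cause of the changed counts was not tested. Over all protein-coding genes the share was 11.7% within 100 bp and 6.19% in the 1000 peaks of highest score. It was 54.8% in the whole relaxed list of both replicates, 22.7% in replicate 1 alone and 23.4% in replicate 4 alone. No paired analysis was possible because both replicates belong to the same group.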

Other observations

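Genes with more than 1 annotated TSS had more positions at which a summit could count. Of the 33 replication genes, 11 had more than 1 TSS and 7 of these had a peak, and 6 of the 22 with 1 TSS did. Over all protein-coding genes the shares were 40.8% with more than 1 TSS and 17.3% with 1. The part of this in the counts by role was not tested.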
